A study of Bos taurus with 60 samples.

Results

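The bovine miR-2284 and miR-2285 family was followed along the intestine of cattle that did or did not shed E. coli O157. Its members were taken by name, as every miRNA listed as bta-miR-2284 or bta-miR-2285 with any letter or arm. This gave 48 members of the 608 bovine miRNAs in the table, of which 27 carried miR-2284 names and 21 carried miR-2285 names. Small RNA was sequenced from the intestinal wall of 10 British × Continental feedlot steers. They were 5 super-shedders (SS), whose feces carried E. coli O157 in high numbers when screened, and 5 non-shedders (NS), whose feces were negative for it. The screening came days before slaughter. The paper states that every SS steer was still positive before slaughter, but only 1, SS310, was still at super-shedder level. Both groups were found by screening of feedlot feces, so that shedding cannot be told apart from other differences between these animals. Each steer gave 1 library from each of 6 regions, namely the duodenum, both ends of the jejunum (proximal and distal), the cecum and the colon (spiral and descending), so that 5 SS and 5 NS libraries were compared in each region and 60 libraries were used in all. The steer is the biological replicate, and the 6 regions of a steer are not independent of each other. Values below are CPM, read counts scaled to 1000000 counts per library, and steers are listed as SS274, SS287, SS294, SS299 and SS310, and then NS108, NS152, NS165, NS242 and NS745.

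MicroRNAs are short RNAs that guide Argonaute proteins to messenger RNAs, mostly through the seed near the 5′ end of the mature strand, and lower their translation or stability. The miR-2284 and miR-2285 names cover many related hairpins that are described from cattle and other ruminants and that lie scattered over the genome, often within introns. RefSeq's annotation of the ARS-UCD2.0 cattle assembly held a gene for 47 of the 48 members, and for bta-miR-2284d none was matched. It named 191 genes MIR2284 or MIR2285. Counted per member, 67 encoded members of the table, and 44 of these 67 lay inside a protein-coding gene. The gene of bta-miR-2284t enters both numbers once for each of its arms.

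Library totals ranged from 535373 to 19346766 counts with a median of 1.74 M, so that 3 counts equalled 0.155 CPM in the deepest library and 5.60 CPM in the smallest. Some libraries stood apart. The deepest was the descending colon of NS108, followed by that of SS310 with 13942283 counts. Summed miRNAs of epithelium (8 of 8 measured) were at 1512 CPM in the SS299 proximal jejunum and 2477 CPM in its distal jejunum, against 135914 to 294563 CPM and 136695 to 207412 CPM in the NS libraries of these regions. The SS299 descending colon was also low in them, at 2803 CPM. The liver miRNA bta-miR-122 reached 11827 CPM in the SS299 duodenum and at most 51.9 CPM in any NS library. What these libraries contribute to a result was not tested except where values without them are given. In whole intestinal wall, fewer cells of a type and less RNA per cell cannot be told apart.

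A few members carried nearly all of the family's counts. The family summed to 147378 of 168779156 counts, or 0.0873%, with bta-miR-2284x and bta-miR-2284y, whose reads may be the same, both included. Together bta-miR-2284x, bta-miR-2284y and bta-miR-2285k held 83.6 to 94.3% of the family's counts in a library. Mean levels over the 60 libraries were 453 ± 162 CPM for bta-miR-2284x (SD), 451.2 ± 161.9 CPM for bta-miR-2284y and 90.04 ± 78.2 CPM for bta-miR-2285k. Mature miRNAs are of nearly the same length, so that these levels need no division by length, although library preparation can favour 1 sequence over another. The next were bta-miR-2285t at 17.5 ± 15.8 CPM, bta-miR-2284w at 15.0 ± 11.1 CPM and bta-miR-2285aa at 13.1 ± 9.91 CPM, which overlapped widely between libraries. By mean CPM, bta-miR-2284x stood at rank 77 of all 608 miRNAs, bta-miR-2285k at rank 132 and bta-miR-2285t at rank 203. The other members were lower. Of all 48 members, 8 averaged above 10 CPM, 11 averaged 1 to 10 CPM and 29 averaged under 1 CPM. At the low end, 14 members had under 20 counts in all 60 libraries together, and 7 of them had at most 3. The library-to-library spread was smallest for bta-miR-2284x among the 10 members found in at least 59 libraries, with a coefficient of variation of 35.7%, against 86.8% for bta-miR-2285k and 90.4% for bta-miR-2285t.

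**Figure D1:**
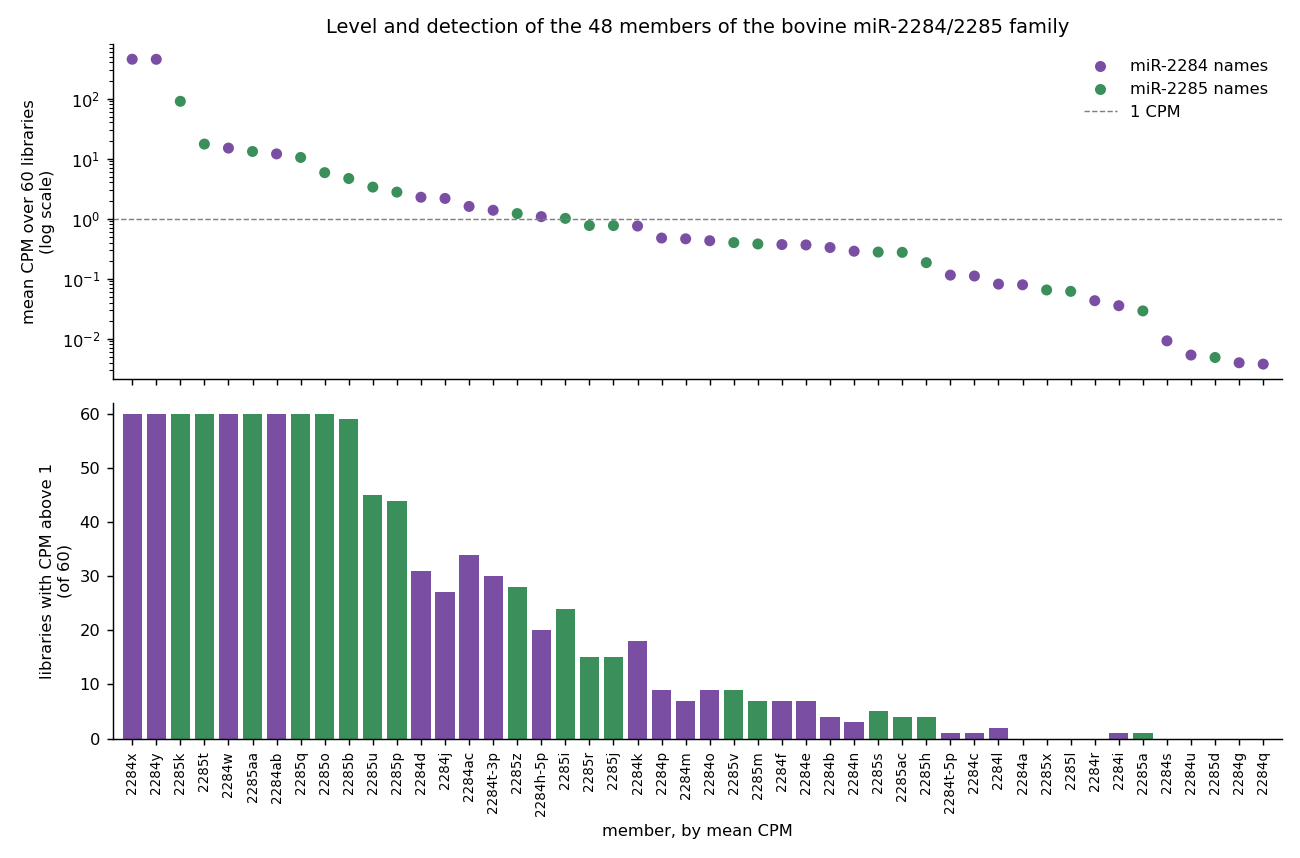
Mean CPM over 60 libraries (upper panel, log scale, points) and number of libraries with a CPM above 1 (lower panel, bars) of the 48 members, ordered by mean CPM, with miR-2284 names in purple and miR-2285 names in green. Levels run from 453 CPM for bta-miR-2284x to below 0.01 CPM, and 9 members are above 1 CPM in all 60 libraries.

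Detection was narrower in the family than among other miRNAs of the table. A CPM above 1, the definition of an expressed miRNA used for these data, was reached in all 60 libraries by 9 of 48 members (18.8%) against 203 of 560 other miRNAs (36.2%), and in at least 30 libraries by 15 members (31.2%) against 314 others (56.1%). It was reached in 5 of 10 libraries of every region by 12 members (25%), against 282 other miRNAs (50.4%). The 9 found everywhere were bta-miR-2284x, bta-miR-2284y, bta-miR-2284w, bta-miR-2284ab, bta-miR-2285k, bta-miR-2285t, bta-miR-2285aa, bta-miR-2285q and bta-miR-2285o. A further 9 members never passed 1 CPM, yet every one of the 48 had at least 1 count somewhere, while 5 of the 560 others had none. Members with miR-2285 names passed 1 CPM in at least 30 libraries more often (8 of 21) than those with miR-2284 names (7 of 27), a difference that was not tested.

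Per library, 11 to 29 members were above 1 CPM, with a mean of 16.85 ± 4.24 (SD, n = 60). Duodenal libraries had 19.1 ± 4.01 members, those of the proximal jejunum 19.4 ± 4.99 and those of the distal jejunum 17.2 ± 3.52. Fewer were found in cecal libraries (15.1 ± 2.96), the spiral colon (15.4 ± 3.63) and the descending colon (14.9 ± 4.41, SD, n = 10 each), so that neighbouring regions differed by less than the spread between libraries. SS and NS libraries had nearly the same number, 17 ± 4.31 in SS and 16.7 ± 4.24 in NS (n = 30 each). Libraries at the ends of this range differed in depth. The most members, 29, were found in the SS294 proximal jejunum with 890585 counts and in the NS242 duodenum with 951834 counts, where a single count already passes 1 CPM. The deepest library, the NS108 descending colon, had 11. With at least 1 count instead, the mean was 26.4 to 27.2 members in every region, and in libraries thinned to the smallest total the expected number was 19.2 in the duodenum and 15.3 in the descending colon.

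The top pair could not be separated in the counts. Of bta-miR-2284x there were 62275 counts and of bta-miR-2284y 62080, a difference of 0.313%. Both had equal counts in 32 of 60 libraries and differed by at most 34 in any one. Pairs were compared library by library, by the sum of the absolute differences in counts as a share of the sum of the larger counts. Of 103740 pairs of miRNAs with at least 20 counts, 5 differed by less than 10% in this measure, and 2 of these 5 were pairs of the family. The second was bta-miR-2284e with 43 counts and bta-miR-2284f with 44, equal in 59 libraries. Levels of these 4 members are therefore uncertain one by one, since reads may have been given to both of a pair, and so is any sum over the family. With 1 member of each pair counted, the family averaged 645 ± 265 CPM over the 60 libraries, against 1096 ± 422 CPM with both. The RefSeq annotation placed bta-miR-2284x at 1 gene inside TIAM1, which encodes an activator of the small GTPase RAC1, and bta-miR-2284y at 7 genes. Several copies were also annotated for bta-miR-2285k, bta-miR-2285m and bta-miR-2285o, with 5 genes each, and for bta-miR-2285b and bta-miR-2285j, with 2 genes each, and counts of these members do not show which copy was read.

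Members that share a host gene or a hairpin were unequal in level. In TIAM1, bta-miR-2284i had 2 counts against 62275 of bta-miR-2284x. In SREK1, which encodes a splicing regulator, bta-miR-2285q had 1314 counts and bta-miR-2285z 146, with no protein-coding gene between them and a Spearman's rho of 0.50 between their CPM over the 60 libraries. The hairpin of bta-miR-2284t inside SPON1, which encodes an extracellular matrix protein, gave 171 counts of the 3p arm and 16 of the 5p arm. Libraries share depth and steers, and the rho is a description.

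The members that differed most between SS and NS steers were bta-miR-2284d and bta-miR-2284j, both with a few CPM. Over all 60 libraries they had 239 and 262 counts. Averaged over the 6 regions of a steer, bta-miR-2284j was at 1.06, 0.549, 0.366, 0.261 and 0 CPM in the SS steers, against 5.01, 4.81, 3.68, 5.49 and 0.466 CPM in the NS steers. In steer SS310 it had 0 counts in all 6 libraries. Over the pooled counts of these libraries this allows up to 0.108 CPM (3 counts, counting error only). In the SS310 proximal jejunum library alone, 3 counts equal 2.42 CPM. The groups overlapped only through NS745, which lay within the range of the SS steers, while the other 4 NS steers were each above every SS steer.

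The same steers stood out for bta-miR-2284d. Its steer means were 0.424, 0.941, 0.617, 0.456 and 0.567 CPM in SS, against 4.87, 3.06, 5.43, 5.64 and 0.707 CPM in NS, and again NS745 lay among the SS steers. Region by region, 24 of 30 NS libraries were above the highest SS library of their region for bta-miR-2284d and 23 of 30 for bta-miR-2284j. NS libraries that were not above it came from NS745 in all but 3 cases, and these 3 came from NS108. Its descending colon was the main one, with 3 counts of bta-miR-2284d and 2 of bta-miR-2284j in the deepest library of all, or 0.155 and 0.103 CPM. In the 5 other regions of NS108 the levels were 2.22 to 14.9 CPM for bta-miR-2284d and 4.43 to 7.85 CPM for bta-miR-2284j, so that this library resembled the SS libraries and not the rest of its steer. What sets it apart was not tested.

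**Figure D2:**
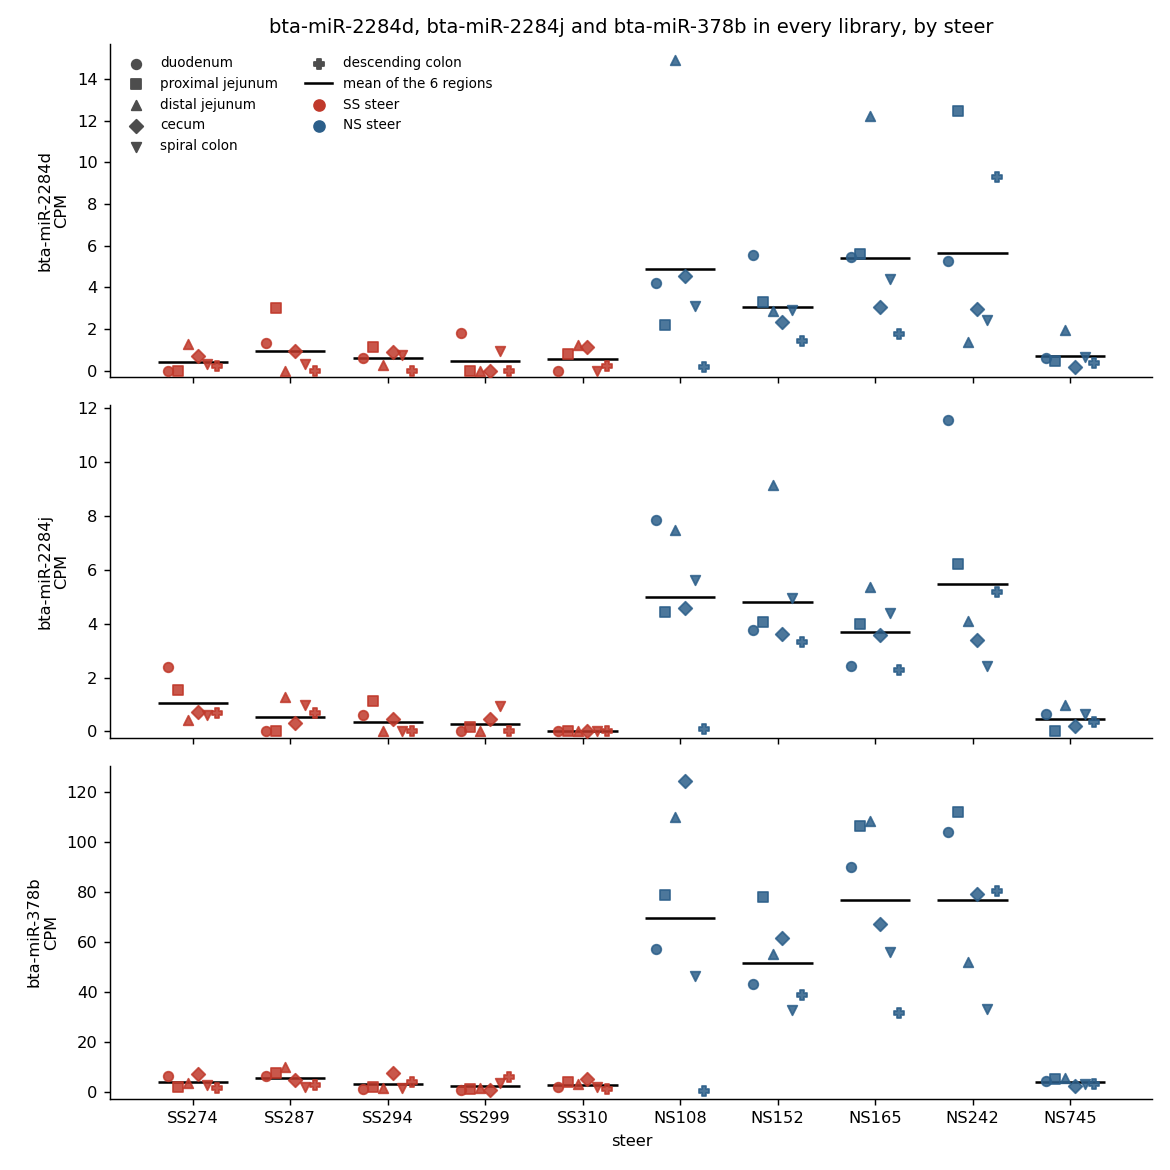
CPM of bta-miR-2284d, bta-miR-2284j and bta-miR-378b (panels from top) in each of 60 libraries, by steer on the x axis, with SS steers in red on the left and NS steers in blue on the right; symbols mark the 6 regions and black lines the mean of a steer. SS steers average 0 to 1.06 CPM of bta-miR-2284j and NS steers other than NS745 average 3.68 to 5.49 CPM, while NS745 is at 0.466 CPM and the NS108 descending colon at 0.103 CPM.

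The miRNA whose pattern was most like both members lay outside the family. Over the 60 libraries and 360 miRNAs compared, bta-miR-378b had the highest Spearman's rho with bta-miR-2284d (0.81) and with bta-miR-2284j (0.77). Next for each was the other of the 2 members (0.69), followed by bta-miR-19a, at 0.50 with bta-miR-2284d and 0.38 with bta-miR-2284j. These are descriptions over libraries that share steers. The steer means of bta-miR-378b were 4.12, 5.66, 3.12, 2.37 and 2.98 CPM in SS, against 69.7, 51.7, 76.7, 77.0 and 4.14 CPM in NS, and its level in the NS108 descending colon was 0.620 CPM, where the other 5 libraries of the steer had 46.5 to 125 CPM. The low NS steer and the low NS108 library were thus shared by all 3 miRNAs. In RefSeq, MIR2284J lies inside GRIK4, which encodes a kainate-type glutamate receptor subunit, and 6 protein-coding genes lie between it and MIR378B.

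Tests within regions used edgeR's quasi-likelihood test with Benjamini-Hochberg adjustment over all miRNAs tested, at a false discovery rate (FDR) of 10%. A miRNA was tested where it passed 1 CPM in at least 3 steers of either phenotype, so 16 to 23 of the 48 members were tested in a region and a member high in only 1 group could pass through that group. In the distal jejunum bta-miR-2284j fell, with 0.428, 1.27, 0, 0 and 0 CPM in SS and 7.47, 9.14, 5.35, 4.11 and 0.970 CPM in NS. Every NS library except NS745 was above all SS libraries. The log2 fold change was -4.13 (standard error 0.82, adjusted p = 0.0530), and it was the only call among 18 members tested, beside 0.592% called of 338 miRNAs. The call was kept without NS745 or SS287 and was lost when any 1 of the other 8 steers was left out, with adjusted p up to 0.185, while the log2 fold change stayed between -4.72 and -3.69. Distal jejunum libraries had 1.28, 0, 0.288, 0 and 1.25 CPM of bta-miR-2284d in SS and 14.9, 2.89, 12.2, 1.37 and 1.94 CPM in NS. Here the NS libraries, NS745 among them, were all above the SS libraries, if barely in the case of NS242 (log2 fold change -2.93, adjusted p = 0.206). This separation rests on few counts, with 2 in NS242 and 2 in NS745, against 3 in SS274 and 2 in SS310. How many of all 338 miRNAs separated the groups in this way was not counted.

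A fall of bta-miR-2284d was called in spiral colon libraries, with 0.305, 0.333, 0.766, 0.932 and 0 CPM in SS and 3.12, 2.89, 4.41, 2.43 and 0.642 CPM in NS. The NS745 library lay among the SS libraries and the other NS libraries did not. The log2 fold change was -2.96 (standard error 0.63, adjusted p = 0.0794), the only call among 18 members, beside 0.898% called of 334 miRNAs. It depended on single steers in the same way: the adjusted p reached 0.265, and only the omission of NS242 or NS745 kept the call. There bta-miR-2284j had 0.611, 0.999, 0, 0.932 and 0 CPM in SS and 5.62, 4.96, 4.41, 2.43 and 0.642 CPM in NS (log2 fold change -2.94, adjusted p = 0.128, called without NS745 at adjusted p = 0.0203).

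No member was called in the other regions by this test. In the cecum, where 0.292% of 342 miRNAs and 0 of 17 members were called, bta-miR-2284j had 0.730, 0.320, 0.454, 0.465 and 0 CPM in SS and 4.57, 3.61, 3.59, 3.41 and 0.200 CPM in NS. Its log2 fold change was -3.33 (standard error 0.76, adjusted p = 0.143), and without NS745 it was -3.68 with adjusted p = 0.00662. Of the members tested there, 3 had an unadjusted p under 0.05, beside 27 of all 342 miRNAs. Those other than bta-miR-2284j were bta-miR-2284d (-1.81) and bta-miR-2285k (1.09).

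In the duodenum 0 of 21 members were called beside 0.293% of 341 miRNAs. An unadjusted p under 0.05 was reached by 4 members, beside 15 of all 341 miRNAs. For bta-miR-2284j the 5 SS libraries had 2.41, 0, 0.619, 0 and 0 CPM and the NS libraries 7.85, 3.79, 2.43, 11.6 and 0.634 CPM (log2 fold change -3.21, adjusted p = 0.397). For bta-miR-2284d they had 0, 1.32, 0.619, 1.81 and 0 CPM in SS and 4.22, 5.53, 5.47, 5.25 and 0.634 CPM in NS (-2.84, adjusted p = 0.397). Both members had the NS745 library as the lowest of its group.

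In the proximal jejunum 0 of 23 members were called beside 0.282% of 355 miRNAs. An unadjusted p under 0.05 was reached by 6 members, beside 39 of all 355 miRNAs. Libraries there had 0, 3.03, 1.12, 0 and 0.806 CPM of bta-miR-2284d in SS and 2.22, 3.31, 5.60, 12.5 and 0.480 CPM in NS, and the groups overlapped through SS287, NS108 and NS745. The log2 fold changes were -2.50 for bta-miR-2284d (adjusted p = 0.330) and -2.33 for bta-miR-2284j (adjusted p = 0.344). In the descending colon 0 of 16 members and 0% of 331 miRNAs were called. Of the 331 miRNAs, 10 had an unadjusted p under 0.05, and 1 of them was a member, bta-miR-2284d (-3.28, adjusted p = 0.992). It had 0.226, 0, 0, 0 and 0.215 CPM in SS and 0.155, 1.43, 1.76, 9.31 and 0.348 CPM in NS, where only NS108 was not above every SS library. With the libraries of NS108 and SS310 left out there, bta-miR-2284d was at -3.67 (adjusted p = 0.502) and bta-miR-2284j at -2.32 (adjusted p = 0.789), an alternative chosen after the data were seen. For bta-miR-2284j the value with all libraries was -2.91 (adjusted p = 0.992). The exact test of edgeR called more, namely bta-miR-2284d with bta-miR-2284j for the duodenum (2 of 21 members, beside 0.88% of all miRNAs), distal jejunum (2 of 18, 2.37%) and spiral colon (2 of 18, 1.2%) and bta-miR-2284j alone in the cecum (1 of 17, 0.877%). It called none in the proximal jejunum (0.282%) or the descending colon (0%).

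With the counts of the 6 regions added up for each steer, bta-miR-2284d fell, with a log2 fold change of -2.62 in SS (standard error 0.55, adjusted p = 0.0877). It was 1 call among 17 members tested, beside 0.583% of 343 miRNAs. Without the NS108 descending colon library, which is the deepest and weighs most in that sum, the value was -2.84 with adjusted p = 0.0272. The call was kept without NS108, NS745 or SS299 and lost without any other single steer (adjusted p up to 0.246), and it was lost with RLE or library-total scaling (adjusted p = 0.1002 with each). For bta-miR-2284j the log2 fold change was -3.12 (standard error 0.81, adjusted p = 0.175). The exact test called 4 of the 17 members, beside 4.37% of all miRNAs: these 2 as lower in SS, and bta-miR-2285k (adjusted p = 0.0392) and bta-miR-2285aa (adjusted p = 0.0958) as higher.

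**Figure D3:**
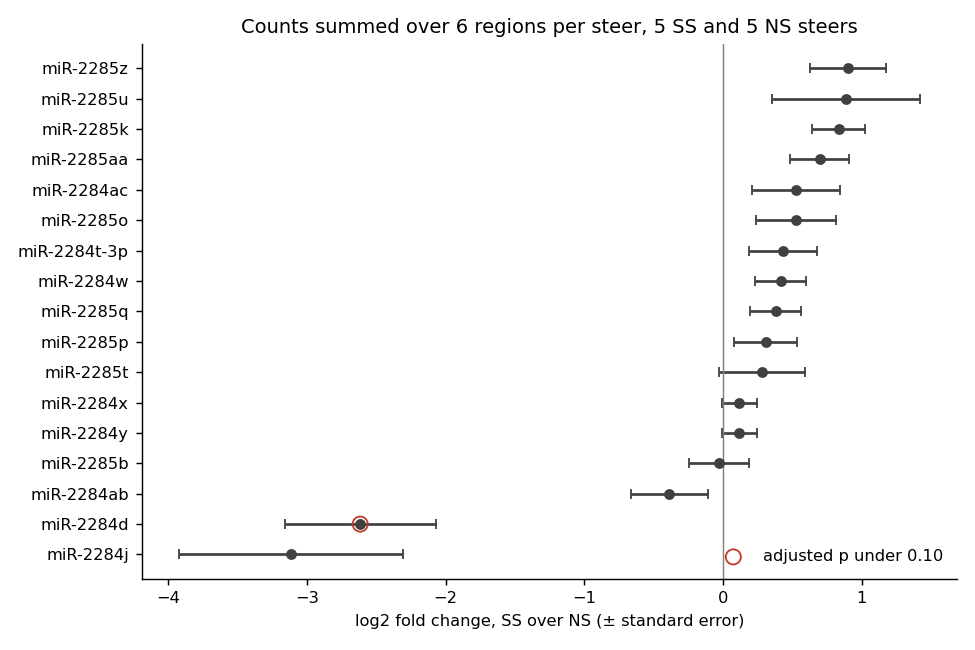
Log2 fold change of SS over NS (x axis, point) with its standard error (bar) for the 17 members tested on counts summed over 6 regions per steer, from edgeR's quasi-likelihood test. Of these, 13 are above 0 and only bta-miR-2284d, circled, has an adjusted p under 0.10.

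Most of the other members that could be tested had log2 fold changes above 0, many of them small. On summed counts 13 of 17 members tested had a positive log2 fold change, and the median was 0.38 against 0.00 for all 343 miRNAs. Of the 9 members tested with miR-2285 names, 8 were positive. Duodenal values were positive for 17 of 21 members (median 0.60). Positive were also 16 of 23 members in the proximal jejunum (0.65) and 13 of 18 in the distal jejunum (0.66), and with library totals instead of TMM 13 of 23 and 10 of 18. Among those below 0 with library totals was bta-miR-2284x, at -0.23 in the distal jejunum, where it was 0.12 with TMM. Further down it was 12 of 17 for the cecum (0.22), 13 of 18 for the spiral colon (0.37) and 10 of 16 for the descending colon (0.16), the last 9 of 16 with library totals. Medians of all miRNAs tested were -0.03 to 0.11 in these regions. Outside the family, 59.6% of miRNAs were positive in the proximal jejunum and 44.9 to 54.1% elsewhere, with TMM. Library totals lowered this share to 40.1% for the proximal and 27.2% for the distal jejunum, so the fall among members there was not specific to the family. The counts of members take bta-miR-2284x and bta-miR-2284y separately, although their reads may be the same. No member was called higher in SS by the quasi-likelihood test, and the counts describe direction only.

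The clearest of these was bta-miR-2285k, which ranks after bta-miR-2284x and bta-miR-2284y in level. Its steer means were 70.3, 134, 128, 124 and 139 CPM in SS, against 91.1, 49.1, 55.4, 56.3 and 53.9 CPM in NS. SS274 lay within the NS range and the other 4 SS steers were above every NS steer. On summed counts the log2 fold change was 0.83 (standard error 0.19, adjusted p = 0.119). This value moved with single libraries: it was called without SS274 (adjusted p = 0.0771) and without SS299 (0.0907), and it was 0.70 (adjusted p = 0.360) without the NS108 descending colon library.

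In the duodenum bta-miR-2285k did not overlap between the groups, with 172, 117, 94.1, 199 and 111 CPM in SS against 73.6, 34.4, 83.3, 78.8 and 41.2 CPM in NS (log2 fold change 0.93, adjusted p = 0.480). How many of all 341 miRNAs tested there did not overlap was not counted. These CPM are scaled by library totals, with which 70.3% of miRNAs outside the family were higher in SS (median log2 fold change of all miRNAs 0.23). The highest duodenal value of bta-miR-2285k was that of SS299, the library with bta-miR-122, and without it the log2 fold change was 0.86 (adjusted p = 0.592). In the cecum the groups overlapped through NS108, with 59.8, 41.3, 52.2, 66.5 and 140.7 CPM in SS and 74.2, 26.1, 24.1, 25.6 and 8.01 CPM in NS (1.09, adjusted p = 0.495, and 0.57 without SS310). In the distal jejunum SS libraries ran from 37.4 to 342 CPM and NS libraries from 69.6 to 207 CPM (0.79, adjusted p = 0.481, and 0.40 without SS310), and the lowest SS value was that of SS299.

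Steer means of bta-miR-2285aa and bta-miR-2285z did not overlap between the groups. The first was at 13.0, 19.8, 18.7, 15.8 and 16.7 CPM in SS and 12.8, 8.72, 10.2, 8.47 and 7.21 CPM in NS. The second was at 1.43, 1.96, 2.05, 1.81 and 1.16 CPM in SS and 0.871, 0.389, 0.716, 1.12 and 0.619 CPM in NS, which rests on 146 counts in 60 libraries. Among all 343 miRNAs tested on summed counts, 0.875% had every SS steer mean above every NS steer mean, and 2 of these 3 miRNAs were these members. None of the 343 (0%) had every SS steer mean below every NS steer mean. Their summed log2 fold changes were 0.70 for bta-miR-2285aa and 0.90 for bta-miR-2285z, with adjusted p = 0.208 for both. The host genes are ERCC3, which encodes a DNA helicase of transcription and repair, for bta-miR-2285aa and SREK1 for bta-miR-2285z.

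**Figure D4:**
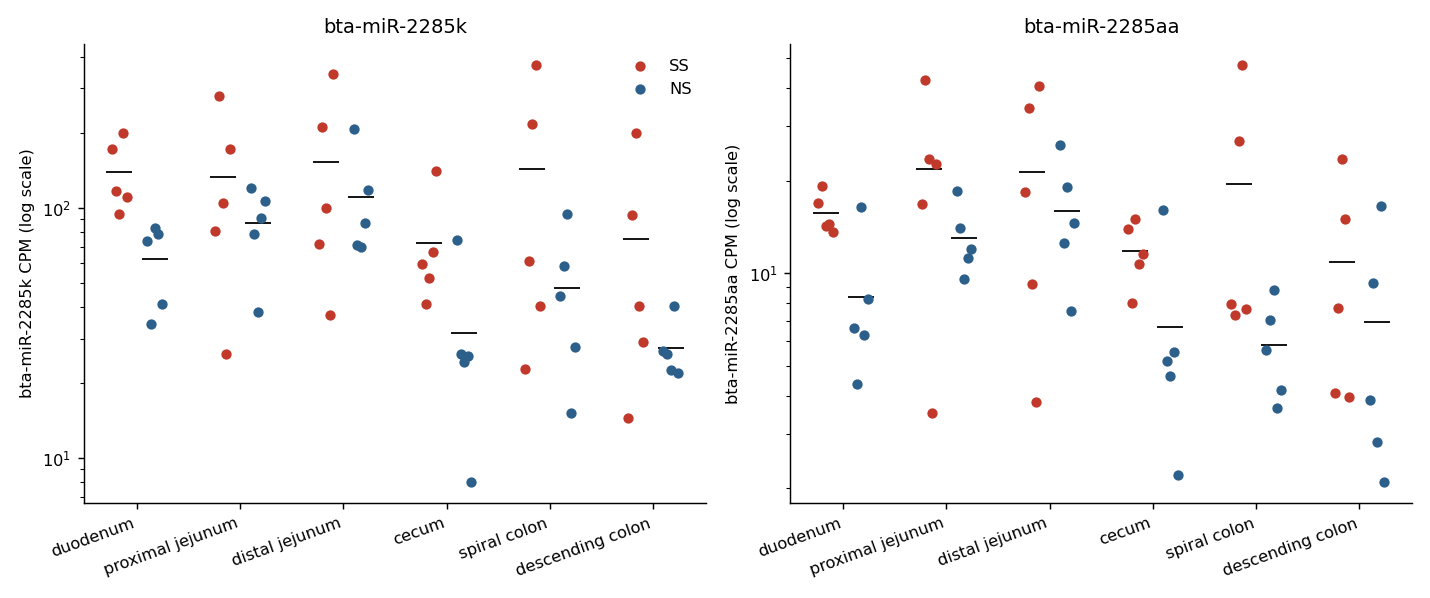
CPM on a log scale of bta-miR-2285k (left) and bta-miR-2285aa (right) in the 6 regions, with SS libraries in red left of NS libraries in blue (5 each) and black lines at the group means. In the duodenum the SS libraries of bta-miR-2285k lie at 94.1 to 199 CPM and the NS libraries at 34.4 to 83.3 CPM, and in the other regions the groups overlap.

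Further members reached an unadjusted p under 0.05 in a region, and none of them passed the FDR. In the proximal jejunum they included bta-miR-2285i, at 1.52, 1.52, 1.12, 1.68 and 4.03 CPM in SS and 1.48, 0.368, 0.8, 1.25 and 0.480 CPM in NS (log2 fold change 1.70, adjusted p = 0.317), and bta-miR-2285o, at 9.91, 9.10, 10.1, 10.1 and 6.45 CPM in SS and 2.22, 3.68, 5.60, 8.73 and 7.67 CPM in NS (1.18, adjusted p = 0.330). Without SS299, whose library there is low in epithelial miRNAs, bta-miR-2285o was at 0.75. In the distal jejunum bta-miR-2285z had 1.71, 5.09, 2.02, 0.457 and 1.87 CPM in SS and 0, 0.481, 0.765, 0.686 and 0 CPM in NS, or 21 counts in SS and 3 in NS in total (2.18, adjusted p = 0.206). In the spiral colon bta-miR-2285aa had 7.94, 7.32, 26.8, 47.5 and 7.62 CPM in SS and 5.62, 7.03, 8.82, 3.65 and 4.17 CPM in NS (1.23, adjusted p = 0.342), where SS294 and SS299 carried the difference in means. In the duodenum bta-miR-2284ac was at 1.86 to 6.32 CPM in SS and 0.608 to 2.10 CPM in NS (1.24, adjusted p = 0.882).

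The 2 most abundant members had smaller log2 fold changes than bta-miR-2285k. Summed over regions, bta-miR-2284x had a log2 fold change of 0.12 (standard error 0.13, adjusted p = 0.796) and bta-miR-2284y, with nearly the same counts, also had 0.12 (adjusted p = 0.801). Steer means of bta-miR-2284x were 354 to 629 CPM in SS and 331 to 482 CPM in NS, and the ranges overlapped. The summed log2 fold changes were 0.28 (standard error 0.31) for bta-miR-2285t, which was at -0.049 without SS299, 0.42 (standard error 0.18) for bta-miR-2284w and -0.39 (standard error 0.28) for bta-miR-2284ab, none of them called.

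The summed level of the family depended on how libraries were scaled. By library totals it was 1386 ± 245 CPM in SS and 1104 ± 246 CPM in NS in the duodenum (SD, n = 5 each), and with 1 member of each near-identical pair 834 ± 156 CPM in SS and 631 ± 142.3 CPM in NS. In the cecum SS libraries held 985 to 1395 CPM and NS libraries 595 to 841 CPM, without overlap, and with 1 member of each pair 577 to 780 CPM in SS and 341 to 513 CPM in NS. With TMM scaling within the cecum the ranges were 793 to 1130 CPM in SS and 570 to 1081 CPM in NS and overlapped. The median log2 fold change of all miRNAs in the cecum was 0.32 with library totals and -0.01 with TMM.

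In the jejunum the summed level spread widely by totals, from 436 to 2298 CPM in SS and 944 to 1499 CPM in NS in the proximal part. In the distal part it ran from 361 to 2098 CPM in SS and 926 to 2238 CPM in NS. The lowest values of both were those of SS299, and without SS299 the SS libraries held at least 1069 and 936 CPM. With TMM the ranges narrowed to 947 to 1591 CPM in SS and 959 to 1287 CPM in NS in the proximal jejunum, and to 1055 to 1354 CPM in SS and 913 to 1272 CPM in NS in the distal jejunum. TMM-scaled sums of the spiral colon were 1040 ± 88.2 CPM in SS and 962 ± 45.9 CPM in NS. Those of the descending colon were 846 ± 169 CPM in SS and 710 ± 146 CPM in NS. With TMM the groups overlapped in all 6 regions.

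**Figure D5:**
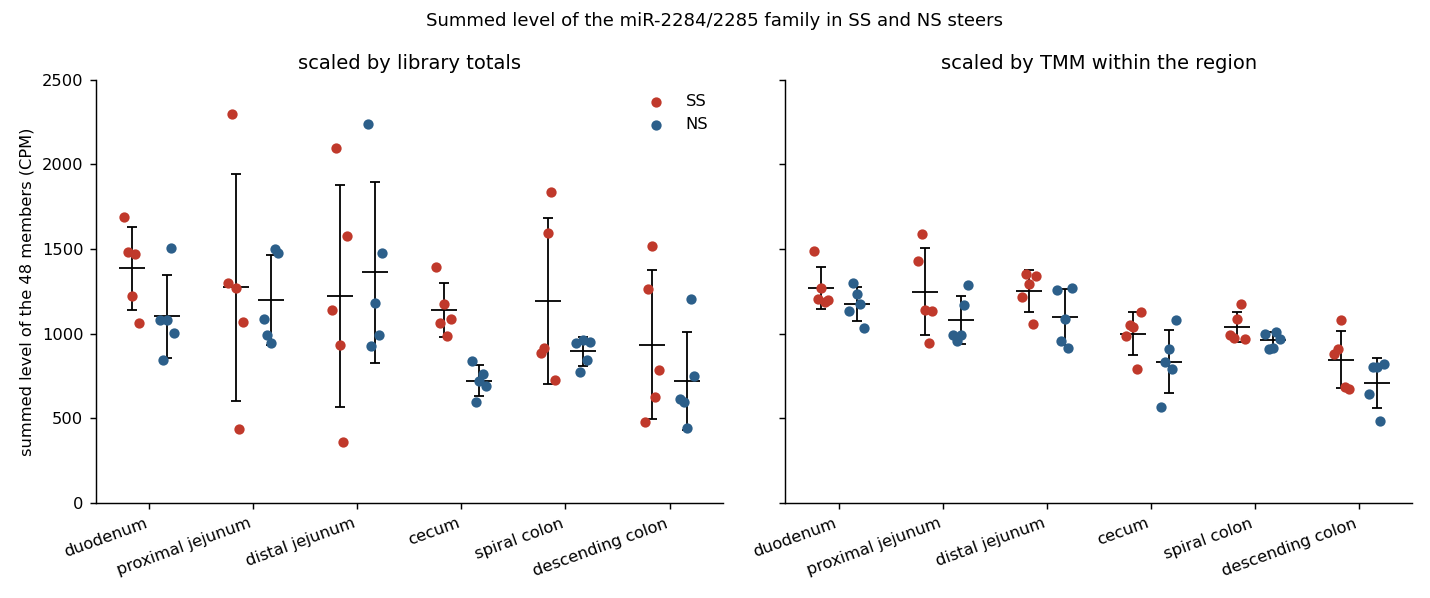
Summed CPM of the 48 members in each region (points, SS in red left of NS in blue, 5 libraries each), with the mean and SD in black, scaled by library totals (left) and by TMM within a region (right). The cecum ranges of 985 to 1395 CPM in SS and 595 to 841 CPM in NS by totals become 793 to 1130 CPM and 570 to 1081 CPM with TMM.

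Along the intestine 5 of 20 members tested differed between regions (F test of edgeR's quasi-likelihood fit over 60 libraries, FDR 10%), beside 33% called of 361 miRNAs. This fit had terms for phenotype and region and none for the steer, so it took the libraries of a steer as independent. A fit with the steer as a block is given below. All 5 members called without the block had miR-2285 names. The smallest adjusted p was that of bta-miR-2285m (0.000180), which averaged 1.43 ± 1.23 CPM in the duodenum (SD, n = 10) and 0.0932 to 0.346 CPM in the other regions, on 40 counts in all. Of these, 10 came from SS and 11 from NS duodenal libraries.

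The abundant bta-miR-2285k (adjusted p = 0.00965) averaged 100 ± 52.2 CPM in duodenal, 110 ± 72.6 CPM in proximal jejunal and 131 ± 94.0 CPM in distal jejunal libraries. Means of the large intestine were 51.9 ± 37.8 CPM for the cecum, 95.4 ± 114 CPM for the spiral colon and 51.3 ± 56.2 CPM for the descending colon. The cecum and descending colon were lowest, and the 3 regions of the small intestine did not differ from each other beyond their spread. The same order of small over large intestine was seen for bta-miR-2285p (adjusted p = 0.0146), with means of 4.36, 4.11 and 2.89 CPM in the duodenum and the 2 parts of the jejunum and 0.971, 2.69 and 1.55 CPM in the cecum, spiral colon and descending colon. It is encoded inside MPP7, a gene of a cell polarity scaffold protein.

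In the fit without the block, the calls of bta-miR-2285aa (adjusted p = 0.0646) and bta-miR-2285t (adjusted p = 0.0943) were less firm. The first averaged 18.6 ± 11.9 CPM in the distal jejunum and 8.88 ± 7.19 CPM in the descending colon, at its highest and lowest. The second averaged 26 ± 29.8 CPM in the duodenum, where SS299 alone held 108.3 CPM, and 10.5 ± 8.72 CPM in the descending colon. Steers were left out in the fit without the block only. Both calls were lost without NS108, NS745, SS274, SS287 or SS310, when 3 members were called. Single omissions of NS152 (bta-miR-2285t) or NS165 (both) also ended these calls, and without SS299 the members called were 7. Members with the steer as a block numbered 6, with bta-miR-2285b added (adjusted p = 0.0998), and the share over all miRNAs was not counted for that fit. Its adjusted p was 0.000352 for bta-miR-2285m, 0.00461 for bta-miR-2285k, 0.0242 for bta-miR-2285p, 0.0421 for bta-miR-2285aa and 0.0624 for bta-miR-2285t. Neither bta-miR-2284d nor bta-miR-2284j was among the members called between regions.

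Between steers of the same phenotype 10 of 20 members differed by the F test (FDR 10%), beside 40.4% called of 361 miRNAs. First was bta-miR-2284j (adjusted p = 6.6e-05), whose NS steers spanned 0.466 to 5.49 CPM as above. Then came bta-miR-2284ab (adjusted p = 0.000175), encoded inside AFF1, a gene of a transcription elongation factor, with steer means of 6.87 to 16.3 CPM in SS and 8.41 to 20.3 CPM in NS. Steers SS310 and NS242 were the highest of their groups for this member, and it was not called between SS and NS in any region.

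Steer SS299 was the highest of its group for several of the others. It had 2.53 CPM of bta-miR-2285i (adjusted p = 0.0110), where the other SS steers had 0.490 to 2.29 CPM, and 3.11 CPM of bta-miR-2284h-5p (adjusted p = 0.0191), where they had 0.643 to 2.01 CPM. It also had 9.31 CPM of bta-miR-2285o (adjusted p = 0.0237) and 35.7 CPM of bta-miR-2285t (adjusted p = 0.0260), against 5.09 to 7.42 CPM and 12.2 to 21.9 CPM in the other SS steers. Without SS299, 4 members were called, namely bta-miR-2284ab, bta-miR-2284d, bta-miR-2284j and bta-miR-2285i, and without its 2 jejunum libraries 5 were called. The remaining calls were bta-miR-2284d (adjusted p = 0.0130), bta-miR-2285b (0.0887), bta-miR-2285u (0.0940) and bta-miR-2284y (0.0993), beside bta-miR-2284x at 0.105. Without NS745 the call of bta-miR-2284d between steers was lost, while that of bta-miR-2284j was kept. With library totals alone 4 members were called.

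An interaction of phenotype and region was tested directly, with the steer as a term. Of 20 members 0 were called, beside 0% of 361 miRNAs, and 0 members had an unadjusted p under 0.05 against 12 of all miRNAs (smallest adjusted p of a member 0.956). A call of bta-miR-2284j in the distal jejunum and not in the cecum, or of bta-miR-2284d in spiral and not in duodenal libraries, was therefore not shown to be a difference between those regions.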

How the data were processed

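After read trimming and quality filtering in sRNAtoolbox with its default settings, the authors deposited raw counts of each bovine miRNA per library. The submitters' processing notes list Bowtie and edgeR. Genome build and miRBase release behind the counts: not given in the sources used here. Libraries of the rectum, mRNA data and mature sequences were not analysed here, so members were not grouped by seed.

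CPM used library totals. Within regions and on counts summed per steer, SS and NS were compared with edgeR 4.0.16 in R 4.3.3 (TMM scaling, quasi-likelihood test, FDR of 10% by Benjamini-Hochberg). A miRNA entered if 3 or more steers of either phenotype exceeded 1 CPM. F tests over all 60 libraries kept each miRNA that exceeded 1 CPM in 5 or more libraries of any region. The study's own test was the exact test of edgeR. It was run here as an alternative, as were DESeq2 1.42.0, limma 3.58.1 (voom), RLE or total scaling, other filters, an FDR of 5% and each steer left out. Fits were tested on simulated data. Changes were simulated only in miRNAs with a higher mean CPM than bta-miR-2284d and bta-miR-2284j, so these tests do not cover members as low as those. The labels name no batch. Libraries pair by steer, since the labels give the animal. Over 150 pairs of libraries from 1 steer, deviations from the group means had a mean r of 0.140 (116 positive), against -0.0128 for different steers. All 120 pairs of libraries of a group differed beyond sampling noise. Reads carry no molecular identifiers, so limits cover counting error only.

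Members and lists were chosen with earlier results of these data known. Named are bta-miR-2284d, bta-miR-2284j, members past the FDR, the 6 most abundant, up to 8 members by adjusted p in each F test, and up to 2 further members per region with an unadjusted p under 0.05. Other members named, such as those sharing a host gene, were chosen after their values were seen.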

Additional observations from a re-analysis of the deposited data

Results flagged for a closer look

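Of 66 groups of 5 values checked, 9 had an extreme value far from the other 4. The limit used flags about 1 in 20 groups of independent, normally distributed values. Many values here rest on few counts, and the groups share libraries and steers, so the chance rate is not known. NS745 was far below the other NS libraries for bta-miR-2284j in the cecum (0.200 CPM) and for bta-miR-2284d in the duodenum (0.634 CPM). SS274 was high for bta-miR-2284j among SS duodenum libraries (2.41 CPM). NS242 was high in the NS descending colon for bta-miR-2284d (9.31 CPM) and for bta-miR-2285k (40.3 CPM). In the cecum SS310 was high among SS libraries (140.7 CPM) and NS108 among NS libraries (74.2 CPM) for bta-miR-2285k. The number of members above 1 CPM was high in the NS242 libraries of the duodenum (29 members) and the descending colon (25 members), which are the smallest NS libraries of these regions with 951834 and 966622 counts.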

How the results depend on the processing

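On summed counts bta-miR-2285t ran from -0.049 (without SS299) to 0.38 with each steer left out, and the other log2 fold changes checked for members named between SS and NS kept their sign. Abundant members near 0 in a region did not all do so: with library totals bta-miR-2284x was at -0.23 and bta-miR-2284y at -0.24 in the distal jejunum, against 0.12 for each with TMM. Numbers of members called moved as follows. In the duodenum the exact test called 2 members and DESeq2 3. Each of these tools called 2 for the distal jejunum, 1 for the cecum, 2 for the spiral colon and 4 on summed counts. Shares over all miRNAs are given above for the exact test. DESeq2 called 4 of all 341 miRNAs in the duodenum, 14 of 338 in the distal jejunum and 4 of 342 in the cecum. It called 7 of 334 in the spiral colon and 14 of 343 on summed counts. With limma-voom or an FDR of 5%, 0 members were called in the distal jejunum and 0 in the spiral colon. With filterByExpr it was 0 in both as well, but that filter removed bta-miR-2284d and bta-miR-2284j there before testing. On summed counts it was 0 with limma-voom, an FDR of 5%, RLE or library totals, and 2 with limma on mean log2(CPM + 1). With library totals 0 were called in the spiral colon. With each steer left out the members called ranged over 0 to 1 for the distal jejunum and for the cecum, 0 to 2 for the spiral colon and on summed counts, 3 to 7 between regions and 4 to 10 between steers. Between regions 3 were called at an FDR of 5% or with library totals, and 6 with the steer as a replicate block. Between steers 4 were called with library totals, and 5 without the SS299 jejunum libraries, an alternative chosen after seeing the data, like the fits that omitted descending colon libraries. Shares over all miRNAs were not counted for limma on mean log2(CPM + 1), for fits with a steer left out or for alternatives between regions or steers. Members detected per library averaged 26.7 with at least 1 count and 9.25 above 5 CPM, against 16.85 above 1 CPM. Library totals moved the median log2 fold change of all miRNAs to 0.23 for duodenal, -0.30 for distal jejunal, 0.32 for cecal and 0.20 for spiral colon libraries, and positive members to 18 of 21, 10 of 18, 14 of 17 and 15 of 18. Of miRNAs outside the family, 70.3, 27.2, 76 and 65.2% were then positive in these regions. The causes of these changes were not tested. Members of a few CPM rest on single counts in the smaller libraries, where 3 counts are up to 5.60 CPM.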
